A study of Mus musculus with 24 samples.

Results

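The genes described here encode the constant parts of mouse antibodies and the small joining protein of polymeric antibodies. They are Igkc (kappa light chain), Iglc1, Iglc2 and Iglc3 (lambda light chains), Ighm (heavy chain of IgM), Igha (IgA), Ighg1, Ighg2b and Ighg2c (IgG subclasses), and Jchain. They were taken by name from the count table of 16921 genes: 8 carried the symbol there, and Igkc and Iglc3, whose symbol was blank, were found by gene identifier (ENSMUSG00000076609 and ENSMUSG00000105547). All 10 had a row, and all 10 were among the 15165 genes that passed the filter on low counts.

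RNA came from kidney cortex of male mice aged 22 months, all on the C57BL6/J background. The 4 groups were wild type mice on the normal protein diet (WT_NP), wild type mice on the low protein diet (WT_LP), FGF21 KO mice on normal protein (KO_NP) and FGF21 KO mice on low protein (KO_LP). Normal protein held 20% casein and low protein 5%, and every mouse had eaten its diet from 3 months of age. Each group had 6 libraries of Lexogen QuantSeq, which reads 50 bases near the 3' end of a transcript, and a library's number is only a name. FGF21 is a hormone released mainly by the liver when dietary protein is short. The study asked how low protein changes the transcriptome of the old kidney and what FGF21 contributes. The labels do not say how the knockout was made or which cells it covers.

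Antibodies are made by B cells and, at far higher rates, by plasma cells, the terminally differentiated B cells that secrete them. An antibody joins a pair of identical heavy chains, whose constant part sets the isotype, to a pair of identical light chains, kappa or lambda. In mice most antibodies carry kappa. J chain links IgM and IgA units into polymers that epithelia can transport, and IgG does not bind it. Old kidneys are known to collect B cells and plasma cells, together with T cells, around vessels and tubules.

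The tail of the heavy chain decides whether J chain can bind, so the ends of the 5 heavy chain reading frames are shown first. In IgM and IgA a cysteine stands next to the last residue and forms the bond to J chain. Its codon is in capitals in the last 66 coding bases, stop codon included, 5′ to 3′. They lie on the minus strand of chromosome 12 in GRCm38, at chr12:113420867-113420932 for Ighm, chr12:113258768-113258833 for Igha, chr12:113306389-113306454 for Ighg2b, chr12:113287389-113287454 for Ighg2c and chr12:113328976-113329041 for Ighg1 (GENCODE M21 transcripts).
Ighm: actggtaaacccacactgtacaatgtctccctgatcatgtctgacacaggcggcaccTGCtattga
Igha: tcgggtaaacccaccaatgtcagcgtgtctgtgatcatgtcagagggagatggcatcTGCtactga
Ighg2b: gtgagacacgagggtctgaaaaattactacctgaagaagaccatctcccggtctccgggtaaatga
Ighg2c: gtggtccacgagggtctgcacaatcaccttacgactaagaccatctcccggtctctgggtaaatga
Ighg1: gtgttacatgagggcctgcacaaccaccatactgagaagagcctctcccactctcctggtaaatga
Both Ighm and Igha have the codon TGC there, and the 3 IgG genes have GGT, which encodes glycine. Counts were given per gene, so secreted and membrane forms of a heavy chain were not separated.

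Of the lambda genes, Iglc2 and Iglc3 are close copies and Iglc1 is less alike. The ends of the 3 reading frames show how far a read of 50 bases can tell them apart. The last 90 coding bases are given 5′ to 3′, with the bases that differ from Iglc2 in capitals. All 3 lie on the minus strand of chromosome 16 in GRCm38, at chr16:19198536-19198625 (Iglc2), chr16:19065365-19065454 (Iglc3) and chr16:19061752-19061841 (Iglc1).
Iglc2: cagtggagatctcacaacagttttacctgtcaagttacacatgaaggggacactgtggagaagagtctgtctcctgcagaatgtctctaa
Iglc3: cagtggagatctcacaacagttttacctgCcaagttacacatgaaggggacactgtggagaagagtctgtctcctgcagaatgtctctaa
Iglc1: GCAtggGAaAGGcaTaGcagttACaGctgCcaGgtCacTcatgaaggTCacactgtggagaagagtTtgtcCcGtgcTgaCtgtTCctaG
Iglc3 differs from Iglc2 at 1 of these bases and Iglc1 at 27. In the last 300 bases of the transcripts, 13 of 251 windows of 50 bases (5.18%) were identical between Iglc2 and Iglc3, and none of the windows of Iglc1 or of the other 7 genes was shared with another gene. The values of Iglc2 and Iglc3 are therefore uncertain to the extent that counting moved reads between them. Igkc lies on chromosome 6 (chr6:70726435-70726966, plus strand) and Jchain on chromosome 5 (chr5:88519809-88527891, minus strand).

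Library totals ran from 8.47 to 21.1 M counts. On low protein the totals of WT and KO did not overlap, with 15.2 to 18.4 M in WT_LP and 8.47 to 14.1 M in KO_LP. All 12 kidney cortex markers used for this tissue (such as Slc34a1, Umod and Slc12a3) were measured, and their summed level was 14960 to 37816 CPM over the 24 libraries (CPM, a gene's counts relative to the library total, with the total scaled by TMM, a factor that aligns the bulk of the genes between libraries). Of 6 adrenal cortex markers 2 had a row, and their sum never passed 2.13 CPM. Fgf21 was not analysed here, so the genotype labels were not checked against it. The median log2 fold change of all genes tested lay between -0.02 and 0.03 in each of the 5 comparisons below.

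Antibody transcripts were abundant in these kidneys. The 10 genes together took 0.125% to 1.86% of a library's counts in WT_NP (median 0.312%), 0.0599% to 0.368% in WT_LP (median 0.174%), 0.227% to 0.433% in KO_NP (median 0.276%) and 0.218% to 2.47% in KO_LP (median 0.641%). The median was thus lowest in WT_LP and highest in KO_LP, and all 4 groups overlapped. The libraries of the KO_NP group were the most alike, with a highest sum of only 1.85 times the lowest, against 12.7 times in WT_NP, 5.77 times in WT_LP and 10.3 times in KO_LP. WT_NP 1 held 48.6% of the summed level of its group and KO_LP 5 held 48.9%. In bulk tissue, fewer antibody-making cells and less antibody RNA per cell cannot be told apart.

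Kappa led everywhere. A 3' tag library counts a transcript near 1 end whatever its length, so the levels of different genes are set side by side in CPM without a length correction. Igkc was the most abundant of the 10 genes in all 24 libraries and made up 58.4% of their sum on average, followed by Ighm with 19.2%, Igha with 12.1% and Jchain with 4.04%. Ighg2b (2.05%), Iglc1 (1.74%), Ighg2c (1.25%), Iglc2 (0.622%), Ighg1 (0.4095%) and Iglc3 (0.249%) made up the rest. The lowest count of any of the 10 genes in any library was 14 (Ighg1), so none was ever undetected.

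**Figure D1:**
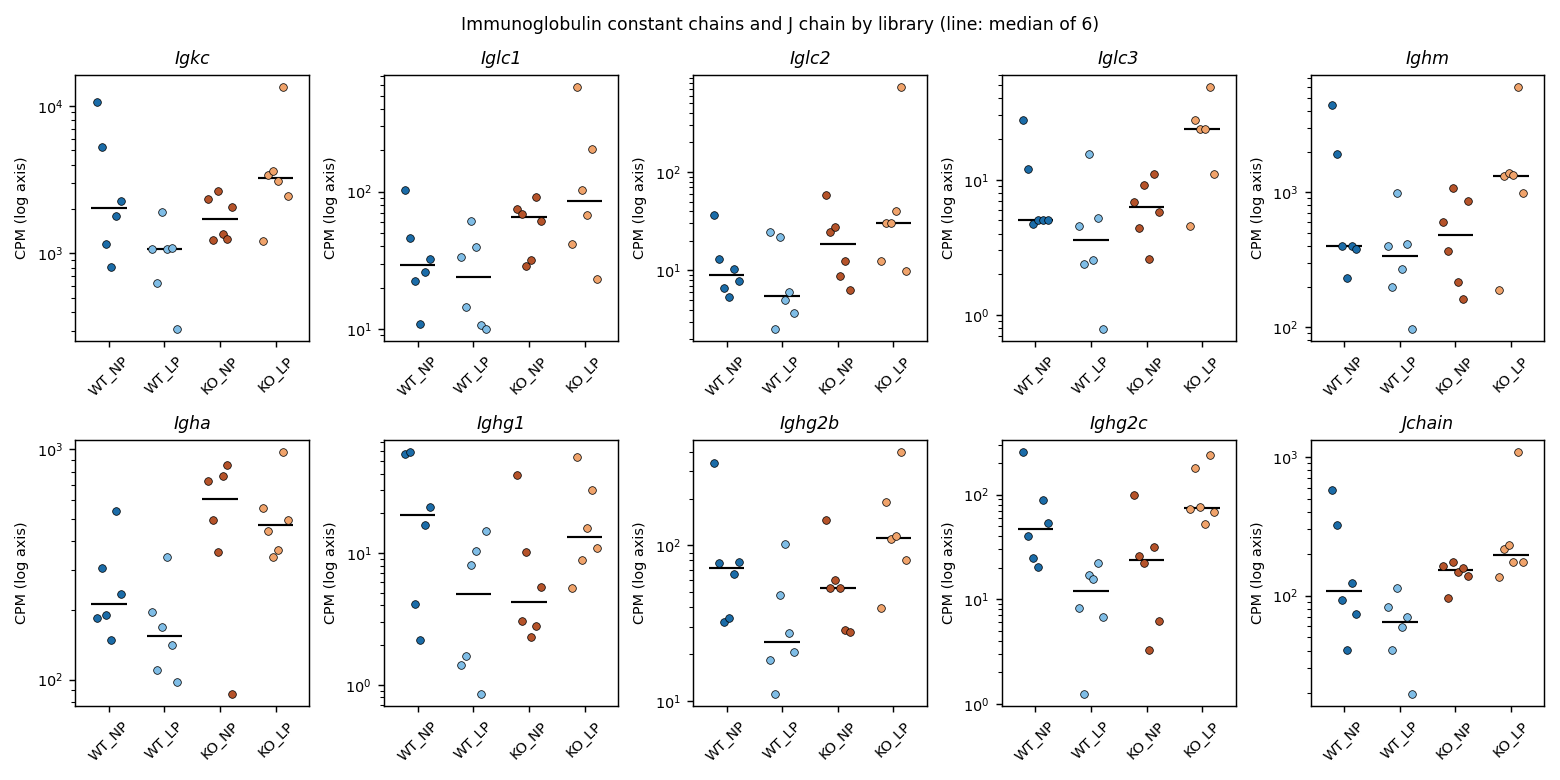
Level of each gene in each library, in CPM on a log axis, with 6 libraries per group and a line at the group median. KO_LP 5 is the highest point of its group in 8 of the 10 panels, and for Igha, Ighg2c and Jchain every KO_LP library lies above every WT_LP library.

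The kappa chain gene Igkc ranged from 808 to 10608 CPM in WT_NP (median 2027) and from 308 to 1900 CPM in WT_LP (median 1073). It ranged from 1244 to 2634 CPM in KO_NP (median 1721) and from 1208 to 13463 CPM in KO_LP (median 3262). All 4 groups overlapped, although 5 of the 6 KO_LP libraries lay above the highest WT_LP library. The highest 2 values of the study belonged to KO_LP 5 and WT_NP 1, and the next highest KO_LP library had 3624 CPM.

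Among the lambda chains, Iglc1 ranged from 10.8 to 103 CPM in WT_NP (median 29.3), from 10.02 to 61.1 CPM in WT_LP (median 24), from 28.7 to 91.6 CPM in KO_NP (median 65.1) and from 23.1 to 581 CPM in KO_LP (median 85.0). Its KO_LP maximum was library 2, which alone held 56.9% of the group's summed level. Iglc2 ranged from 5.38 to 36.6 CPM in WT_NP (median 9.05), from 2.53 to 24.6 CPM in WT_LP (median 5.55), from 6.32 to 58.5 CPM in KO_NP (median 18.5) and from 9.97 to 738 CPM in KO_LP (median 30.3). Here KO_LP 5 stood alone: it held 85.7% of the summed level of its group, and the next library had 39.8 CPM. Iglc3, the lowest of the 10 genes on average over the 24 libraries, ranged from 4.69 to 27.7 CPM in WT_NP (median 5.06), from 0.787 to 15.5 CPM in WT_LP (median 3.56), from 2.61 to 11.1 CPM in KO_NP (median 6.29) and from 4.54 to 48.8 CPM in KO_LP (median 23.8). For all 3 lambda genes the KO_LP median was the highest of the 4 groups and the groups overlapped.

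The IgM heavy chain gene Ighm ranged from 231 to 4404 CPM in WT_NP (median 401) and from 97.0 to 985 CPM in WT_LP (median 336). It ranged from 163 to 1077 CPM in KO_NP (median 487) and from 188 to 6066 CPM in KO_LP (median 1326). The 3 lower medians lay within the spread of every group, and 5 of 6 KO_LP libraries lay above the WT_LP maximum. KO_LP 1, with the group's lowest Ighm, was the exception.

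Igha, the heavy chain gene of IgA, followed genotype more than diet in its medians. It ranged from 148 to 539 CPM in WT_NP (median 213) and from 97.6 to 339.5 CPM in WT_LP (median 155). In KO_NP it ranged from 86.4 to 855 CPM (median 611) and in KO_LP from 339.8 to 974 CPM (median 467). All 6 KO_LP libraries lay above all 6 WT_LP libraries, by the narrow margin between 339.8 and 339.5 CPM. On normal protein 5 of 6 KO libraries were above the WT mean, and the sixth, KO_NP 6, was the lowest of the 24.

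On average over the 24 libraries, Ighg1, Ighg2b and Ighg2c were below Ighm and Igha. In WT_NP 1, however, Ighg2b (340.4 CPM) and Ighg2c (256 CPM) were above Igha (185 CPM). Ighg2b ranged from 32.2 to 340.4 CPM in WT_NP (median 71.2), from 11.01 to 103 CPM in WT_LP (median 23.9), from 27.9 to 145 CPM in KO_NP (median 53.6) and from 39.7 to 399.6 CPM in KO_LP (median 112). Ighg2c, the C57BL/6 counterpart of the Ighg2a gene of other strains, ranged from 20.1 to 256 CPM in WT_NP (median 46.9), from 1.23 to 22.2 CPM in WT_LP (median 11.9), from 3.24 to 99.9 CPM in KO_NP (median 24) and from 52.7 to 237 CPM in KO_LP (median 74.6). Every KO_LP library had more Ighg2c than any WT_LP library, and WT_LP overlapped WT_NP only through its highest library. Ighg1 ranged from 2.19 to 58.5 CPM in WT_NP (median 19.3), from 0.845 to 14.7 CPM in WT_LP (median 4.92), from 2.29 to 39.2 CPM in KO_NP (median 4.28) and from 5.40 to 53.6 CPM in KO_LP (median 13.2). Its groups all overlapped.

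Jchain ranged from 40.8 to 577 CPM in WT_NP (median 108) and from 19.5 to 113 CPM in WT_LP (median 65.0). It ranged from 96.7 to 174 CPM in KO_NP (median 153) and from 136 to 1083 CPM in KO_LP (median 196). The 6 KO_LP libraries lay above all WT_LP libraries, and KO_NP was the tightest group, with a highest value of 1.79 times the lowest.

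In wild type mice the low protein diet went with lower average antibody transcripts, but no gene passed the test. The fit was edgeR's quasi-likelihood test, with p adjusted over all 15165 genes and a call at an adjusted p under 0.05. None of the 10 genes was called, and 0.0% of all genes tested were called. All 10 fold changes were negative, with a median of -1.57 on the log2 scale and a range of -2.76 (Ighg2c, SE 0.752, adjusted p = 0.6248) to -0.34 (Iglc2, SE 0.946). Mean Igkc was 1013 CPM in WT_LP against 3652 CPM in WT_NP (log2 fold change -1.85, SE 0.591, adjusted p = 0.820). At an unadjusted p under 0.05 there were 6 of 10 genes, against 3.82% of all genes. DESeq2, limma voom and limma on the normalized values called 0 of the 10 as well, and 14, 6 and 0 of all genes. For Igkc, Ighm, Ighg1, Ighg2b, Ighg2c and Jchain all 6 WT_LP libraries lay below the WT_NP mean, which WT_NP 1 raised. Without WT_NP 1 the median of the 10 fold changes was -0.72 and those of Iglc1 and Iglc2 were positive, at 0.04 and 0.29.

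In FGF21 KO mice the same diet went with higher averages for 9 of the 10 genes, again with none called. Of all genes tested, 7.17% were called, and 3.59% were called higher. The median log2 fold change was 1.43, from -0.06 (Igha, SE 0.418, adjusted p = 0.949) to 2.64 (Iglc2, SE 0.940, adjusted p = 0.0787). Iglc3 came closest to the threshold, with 23.2 CPM against 6.62 CPM on average (log2 fold change 1.82, SE 0.602, adjusted p = 0.0628). Ighg2c had 114 CPM against 31.5 CPM (log2 fold change 1.86, SE 0.719, adjusted p = 0.10), and all 6 KO_LP libraries were above the KO_NP mean. Ighm had a log2 fold change of 1.78 (SE 0.785, adjusted p = 0.144), Igkc of 1.32 (SE 0.582, adjusted p = 0.144) and Jchain of 1.2 (SE 0.581, adjusted p = 0.181), each with 5 of 6 KO_LP libraries above the KO_NP mean. The remaining fold changes were 1.52 for Iglc1, 1.34 for Ighg2b and 0.998 for Ighg1. At an unadjusted p under 0.05 there were 7 of 10 genes, against 27.9% of all genes. DESeq2 called 1 of the 10 (Iglc3), limma voom 2 (Iglc3 and Ighg2c) and limma on the normalized values 0. Over all genes these 3 fits called more or fewer than edgeR's 1087: 1839, 1744 and 782 in the same order. Without KO_LP 5 the median of the 10 was 0.83.

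Whether the diet effect differed between genotypes was tested as the KO effect minus the WT effect. No gene in the whole table was called (0.0%), and none of the 10 was. All 10 differences were positive, with a median of 2.92, and 9 of them had an unadjusted p under 0.05 (16% of all genes did). DESeq2 called 1 of the 10 (Ighg2c) and 117 of all genes, and both limma fits called 0 of the 10 and 0 of all genes. Ighg2c had the largest, 4.62 (SE 1.04, adjusted p = 0.158): every WT_LP library was below the WT_NP mean and every KO_LP library above the KO_NP mean. Igkc had 3.17 (SE 0.829, adjusted p = 0.158), Ighm 3.49 (SE 1.11, adjusted p = 0.198) and Jchain 2.87 (SE 0.828, adjusted p = 0.172). Igha had the smallest, 0.55 (SE 0.592, adjusted p = 0.670). The difference is built from both diet comparisons, so it shares all its libraries with them. Without WT_NP 1 and KO_LP 5 the median was 1.55 and Iglc2 turned to -0.19.

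**Figure D2:**
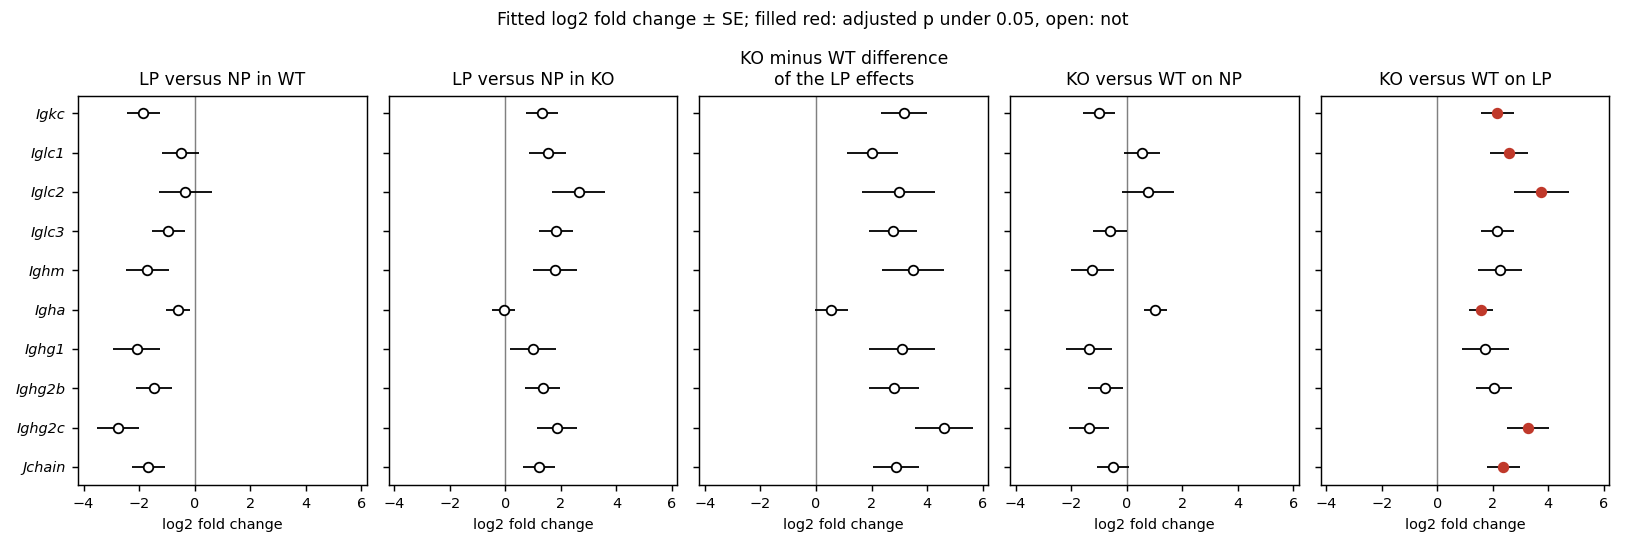
Fitted log2 fold change of each gene in the 5 comparisons, with bars of 1 SE. Filled red points passed an adjusted p under 0.05, and they are found only in KO versus WT on low protein (6 of 10).

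On normal protein no antibody gene was called between the genotypes, where 0.574% of all genes were called. Fold changes of KO over WT were negative for 7 genes and positive for 3 (Igha, Iglc2 and Iglc1), with a median of -0.69. Igha had the lowest p, with 548 CPM in KO_NP against 267 CPM in WT_NP (log2 fold change 1.04, SE 0.422, adjusted p = 0.298), and it alone had an unadjusted p under 0.05 (12.6% of all genes did). DESeq2 and both limma fits also called 0 of the 10. Over all genes DESeq2 called 246, voom 154 and limma on the normalized values 77. The lowest fold changes were those of Ighg2c (-1.36, adjusted p = 0.440) and Ighg1 (-1.36, adjusted p = 0.525). The sign of the fold change for Iglc3, Ighg2b and Jchain turned positive without WT_NP 1, at 0.04, 0.10 and 0.16.

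On low protein the antibody genes were higher in the FGF21 KO. Of the 10 genes 6 were called, all higher in KO, where 2.93% of all genes were called and 1.35% were called higher. Ighg2c rose most clearly, from a mean of 11.8 CPM in WT_LP to 114 CPM in KO_LP (log2 fold change 3.26, SE 0.765, adjusted p = 0.0237). Jchain rose from 64.3 to 336 CPM (2.38, SE 0.604, adjusted p = 0.0342) and Igha from 176 to 528 CPM (1.59, SE 0.428, adjusted p = 0.0463). For these 3 genes the groups did not overlap, which held for 1.09% of all genes in the higher direction. Igkc rose from 1013 to 4545 CPM (2.17, SE 0.598, adjusted p = 0.0497), with all 6 KO_LP libraries above the WT_LP mean. Iglc1 rose from 28.2 to 170 CPM (2.59, SE 0.687, adjusted p = 0.0437) and Iglc2 from 10.7 to 143 CPM (3.75, SE 0.993, adjusted p = 0.0436), each with 5 of 6 KO_LP libraries above the WT_LP mean. The 4 genes not called also had positive fold changes: Iglc3 2.17 (adjusted p = 0.0525), Ighg2b 2.03 (adjusted p = 0.0855), Ighm 2.25 (adjusted p = 0.114) and Ighg1 1.73 (adjusted p = 0.245). The median was 2.21, and 9 of 10 genes had an unadjusted p under 0.05, against 21.1% of all genes. KO_LP had the lower library totals, whose part in the result was not tested.

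These calls were close to the threshold, and none held in every fit with 1 library left out. The fit was repeated 24 times with 1 library left out. All 10 fold changes kept a positive sign each time. The number called of the 10 ran from 0 (without WT_LP 1, WT_LP 2 or WT_LP 6) to 8 (without WT_NP 1). The number called of all genes also moved. It was 180, 233 and 263 without WT_LP 1, 2 and 6, and 708 without WT_NP 1, against 445 with all libraries. Without WT_LP 1, 2 and 6 in turn the median of the 10 fold changes was 2.22, 2.09 and 2.12, against 2.21 with all libraries. Of the 10 genes 1 was called without KO_LP 5, KO_LP 4 or WT_LP 5 (304, 208 and 268 of all genes). Without WT_NP 2 it was 2 (400), and without WT_NP 5, WT_LP 4, KO_NP 3 or KO_LP 2 it was 3 (385, 393, 403 and 361). Ighg2c was called in 21 of the 24 fits, with fold changes of 2.92 to 3.54. Jchain was called in 17, Iglc1 and Iglc2 in 13 each, Igha in 7, Igkc in 5, Iglc3 in 4, Ighg2b in 2, and Ighm and Ighg1 in none. Without KO_LP 5 the fold change of Iglc2 was 1.21 (adjusted p = 0.305), that of Igkc 1.45 (adjusted p = 0.143) and that of Jchain 1.53 (adjusted p = 0.107). Without KO_LP 2 that of Iglc1 was 1.64 (adjusted p = 0.119). Without both WT_NP 1 and KO_LP 5 Ighg2c remained called (2.92, adjusted p = 0.0292) and no other of the 10, where 441 of all genes were called.

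**Figure D3:**
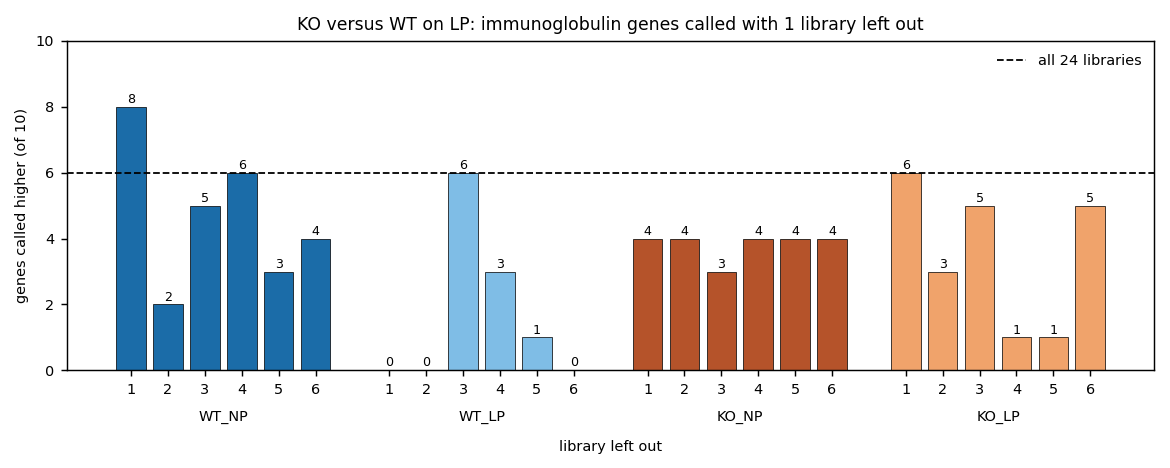
Number of the 10 genes called in KO versus WT on low protein when the library on the horizontal axis was left out, coloured by group, with a dashed line at the 6 called with all 24 libraries. The count reaches 0 without WT_LP 1, 2 or 6 and 8 without WT_NP 1. Of all genes, 180, 233 and 263 were called without WT_LP 1, 2 and 6 and 708 without WT_NP 1, against 445 with all libraries.

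The balance between isotypes was computed per library from raw counts. Among the 5 heavy chain genes described here, IgM led in 5 WT_NP, 4 WT_LP, 2 KO_NP and 5 KO_LP libraries, and IgA led in the others. The 3 IgG genes summed never led. Ighg3 and Ighd were left out of the heavy chain counts. In WT_NP 6 Ighg3 had 5964 counts, more than the 4130 of Ighm. The IgM share of heavy chain counts ran from 36.1% to 84.0% in WT_NP (median 57.2%), 36.5% to 80.3% in WT_LP (median 62.9%), 15.1% to 87.3% in KO_NP (median 38.2%) and 21.8% to 78.7% in KO_LP (median 65.7%). The IgA share ran from 3.52% to 48.6% in WT_NP (median 29.9%), 13.8% to 46.0% in WT_LP (median 32.7%), 8.74% to 79.1% in KO_NP (median 48.6%) and 12.6% to 64.4% in KO_LP (median 19.8%). The range of both shares within KO_NP was wider than the difference between any group medians: KO_NP 5 was 79.1% IgA, and KO_NP 6 was 87.3% IgM. The 95% Wilson intervals of single shares were at most 1.44 points to each side for heavy chain classes. They cover counting error only.

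Ighg1, Ighg2b and Ighg2c together are called IgG in these shares, and Ighg3 was not counted. In WT_NP 6 Ighg3 had 5964 counts against 1683 of these 3 genes. IgG so defined made up 7.33% to 20.1% of heavy chain counts in WT_NP (median 12.7%) and 4.32% to 17.7% in WT_LP (median 7.12%). It made up 4.01% to 17.6% in KO_NP (median 5.92%) and 8.65% to 19.4% in KO_LP (median 9.91%). Within IgG, Ighg2c held 22.8% to 52.0% in WT_NP (median 37.5%), 8.85% to 44.1% in WT_LP (median 19.6%), 5.48% to 50.2% in KO_NP (median 27.6%) and 28.8% to 62.0% in KO_LP (median 40.5%). Ighg2b held most of the remainder, with medians of 51.5%, 65.7%, 65.0% and 53.5% in WT_NP, WT_LP, KO_NP and KO_LP. All 6 KO_LP libraries lay above the WT_LP mean of the Ighg2c share, and the groups overlapped.

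Kappa held 97.2% to 98.7% of light chain counts in WT_NP (median 97.9%), 94.5% to 98.0% in WT_LP (median 95.7%), 91.6% to 97.6% in KO_NP (median 95.5%) and 84.2% to 98.2% in KO_LP (median 95.6%). WT_NP was the narrowest group and had the highest median. In lambda, KO_LP 2 and KO_LP 5 each stood out with a different gene. Iglc1 made 91.0% of the lambda counts of KO_LP 2 (8588 of 9441 counts; 95% Wilson interval 90.4% to 91.5%), and its kappa share, 84.2%, was the lowest of the study. Iglc2 made 74.4% of the lambda counts of KO_LP 5 (9664 of 12993; 95% interval 73.6% to 75.1%), while the Iglc2 share of lambda in the other 23 libraries never passed 42.2%.

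**Figure D4:**
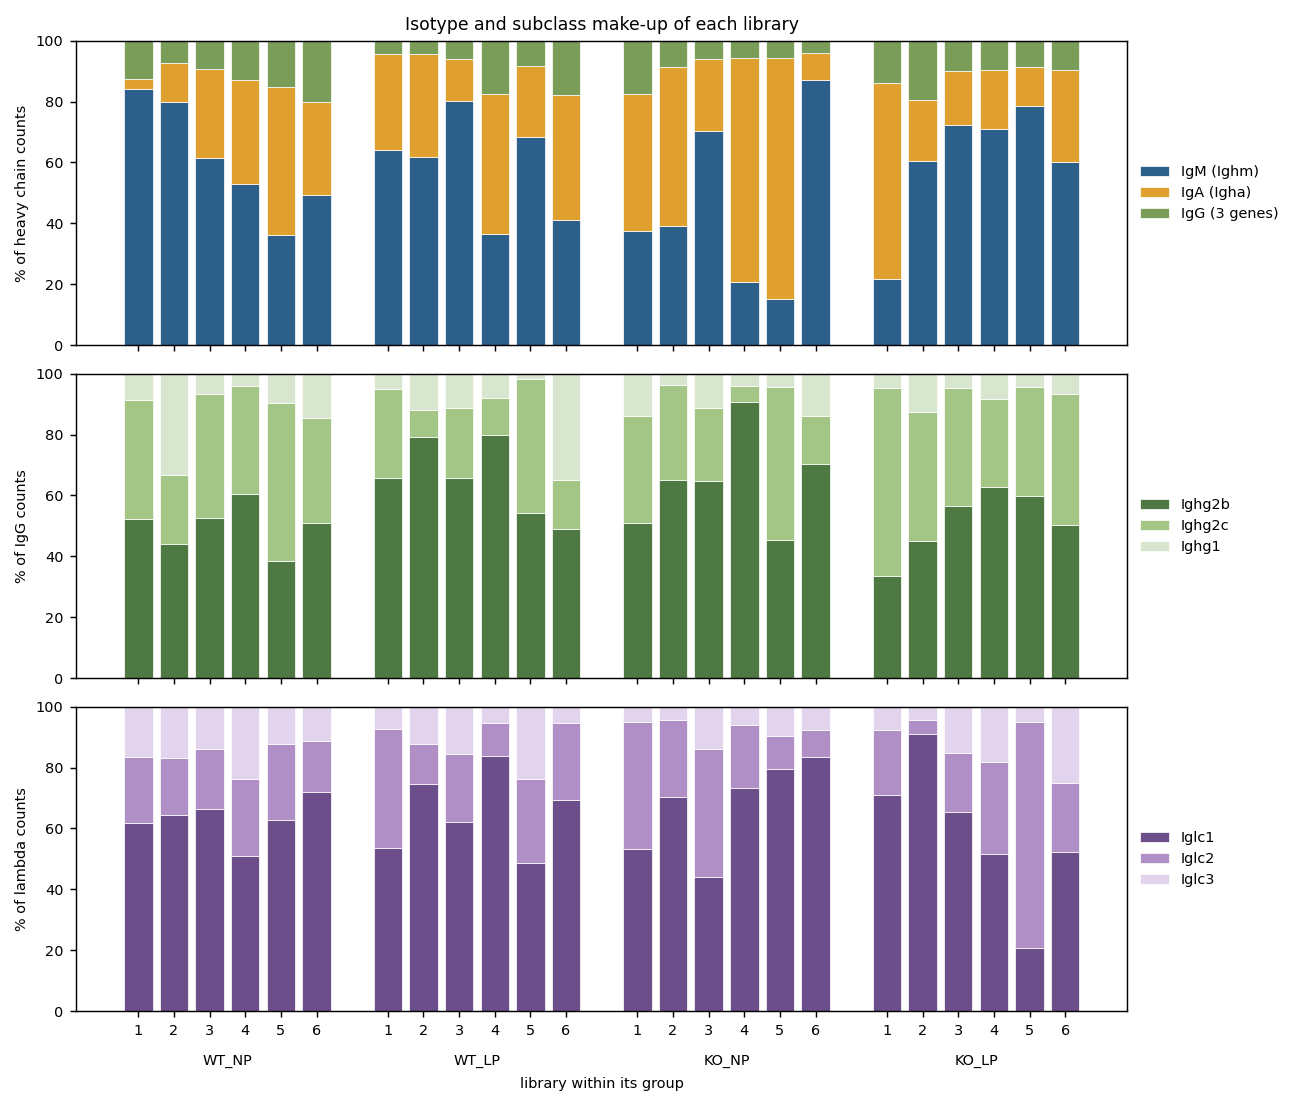
Make-up of each library in percent of raw counts: heavy chain class (top), IgG subclass (middle) and lambda gene (bottom), with the 6 libraries of each group side by side. Ighg3 and Ighd were not counted. IgA reaches 79.1% of heavy chain counts in KO_NP 5, and Iglc2 reaches 74.4% of lambda counts in KO_LP 5.

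Jchain was nearly proportional to its partners. It had 9.77 to 18.3 counts per 100 counts of IgM plus IgA over all 24 libraries, while the summed level of the 10 genes ran from 579 to 23245 CPM. Group means were 13.1 ± 1.77 (SD, n = 6) in WT_NP, 11.5 ± 1.89 in WT_LP, 13.4 ± 1.81 in KO_NP and 13.5 ± 2.88 in KO_LP. The highest value was that of KO_LP 1 and the lowest that of WT_LP 4, both libraries led by IgA.

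None of the balances differed between groups after adjustment. With 7 measures and 4 comparisons of 2 groups, 28 two-sided exact permutation tests were run over all assignments of 12 libraries to 6 and 6, and the smallest p such a test can give is 0.00216. The lowest p was that of the kappa share on normal protein, 94.97% ± 2.45 in KO_NP against 97.9% ± 0.582 in WT_NP (SD, n = 6; exact p = 0.00649, adjusted p = 0.182), with 0 of 6 KO_NP libraries above the WT_NP mean. The kappa share was also lower in WT_LP than in WT_NP by 1.94 points (exact p = 0.0130, adjusted p = 0.182). The Ighg2c share of IgG averaged 41.7% in KO_LP and 22.3% in WT_LP (exact p = 0.0260, adjusted p = 0.182). The Ighg2b share was 15.9 points higher in WT_LP than in WT_NP (exact p = 0.0260, adjusted p = 0.182). The largest mean difference was in the IgA share on normal protein, 47.0% in KO_NP against 26.4% in WT_NP (exact p = 0.156, adjusted p = 0.326).

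Across libraries the genes varied with Igkc, Igha the least. Over log2 CPM in the 24 libraries, Igkc correlated with Jchain at a Pearson r of 0.95 (0.94 after the group means were subtracted) and with Ighm at 0.94 (0.94). For Iglc3 the r with Igkc was 0.88, for Ighg2b 0.85, for Iglc2 0.76, for Ighg2c 0.73, for Iglc1 0.69 and for Ighg1 0.67. For Igha it was 0.40, and 0.16 within groups. Igha had a higher r with Iglc2 (0.56, and 0.37 within groups) and with Jchain (0.55, and 0.30). Ighm and Igha had the weakest relation of any pair, an r of 0.17 (-0.06 within groups). The points are libraries that share a common scaling, and no p is given.

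**Figure D5:**
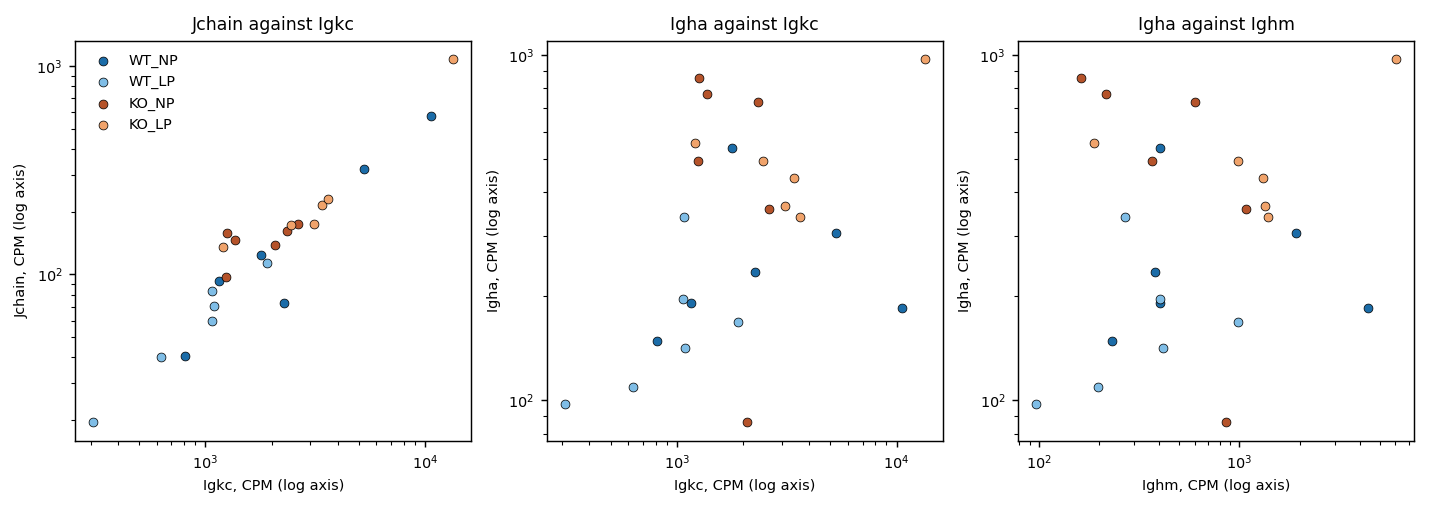
Jchain against Igkc, Igha against Igkc and Igha against Ighm, in CPM on log axes, with 1 point per library coloured by group. Jchain and Igkc lie close to a line (Pearson r 0.95 over 24 libraries), and Igha and Ighm do not (0.17).

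The genes not named as immunoglobulin genes whose pattern was most like that of Igkc included known B cell and plasma cell genes. By Pearson r over the 24 libraries they were Pou2af1, a coactivator of immunoglobulin transcription (0.94), Mzb1, a chaperone of antibody assembly (0.93), Trp53inp1 (0.91), Prg2 (0.90), Gm30211 (0.89), Irf4, a transcription factor required for plasma cells (0.89), Slpi (0.88) and Cacna1e (0.87). Within groups the values were 0.93, 0.91, 0.95, 0.88, 0.85, 0.90, 0.84 and 0.88 in the same order. All 8 are genes of low to moderate level, from 1.19 CPM (Cacna1e) to 30.9 CPM (Trp53inp1) on average.

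Other immunoglobulin genes were few in the table. Of 6 further constant genes searched, Ighd (heavy chain of IgD, carried by naive B cells) and Ighg3 had a row. Ighd stayed between 0.385 and 9.47 CPM. Ighg3 had 548 CPM (5964 counts) in WT_NP 6, against 73.6 CPM in the next highest WT_NP library and 45.6 CPM at most in the other groups. Its log2 fold change for low against normal protein in WT was -4.73 (SE 1.33, adjusted p = 0.722). The single variable segment with a row, Iglv1, a lambda segment, ran from 0.145 to 10.6 CPM and was highest in WT_NP 1.

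B cell and plasma cell genes had fold changes mostly of the same signs as the antibody genes. Of all genes, 7.17% were called for low protein in KO and 2.93% for KO over WT on low protein. Of 19 B cell markers 17 were tested: none was called in any of the 5 comparisons, 17 of 17 fold changes were positive for low protein in KO (median 1.57), 14 of 17 were negative in WT (median -0.52), and 16 of 17 were positive for KO over WT on low protein (median 1.13). Fcrla, a B cell Fc receptor-like protein, had 1.57 in KO (SE 0.554, adjusted p = 0.0752), Pou2af1 1.65 (adjusted p = 0.0754) and Cd79b, part of the B cell receptor, 1.58 (adjusted p = 0.0759). The summed level of the 19 ran from 55.4 to 197 CPM in WT_NP, 38.1 to 154 in WT_LP, 41.4 to 99.7 in KO_NP and 46.7 to 214 in KO_LP.

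Of 16 plasma cell genes, all tested, 1 was called higher with low protein in KO (Xbp1, log2 fold change 0.71, SE 0.154, adjusted p = 0.0179) and 1 higher in KO on low protein. The latter was Tnfrsf17, which encodes the plasma cell survival receptor BCMA (2.60, SE 0.590, adjusted p = 0.0185, at a mean of 0.624 CPM). Over all genes, 3.59% were called higher with low protein in KO and 1.35% higher in KO on low protein. Xbp1, a factor of secretory cells that the kidney expresses widely, was also called, lower, in KO on normal protein (-0.65, adjusted p = 0.0486). In that comparison 0.574% of all genes were called. Fkbp11, an endoplasmic reticulum protein of secretory cells, had 0.52 in KO (adjusted p = 0.0647) and 0.52 in WT. The summed level of the 16 ran from 237 to 450.0 CPM in WT_NP and 237 to 342 in WT_LP. In KO_NP it ran from 214 to 265 and in KO_LP from 279 to 521, and the KO groups did not overlap. Xbp1 weighed most in this sum, at 126 CPM on average, against 14.6 for Mzb1 and 0.624 for Tnfrsf17. The sum therefore does not track plasma cells alone.

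Germinal centre genes, which mark sites of B cell selection, had 4 tested members, none called. Bcl6, the regulator of germinal centre B cells that other cells also express, had 0.92 for low protein in KO (adjusted p = 0.134) and -1.23 in WT (adjusted p = 0.820). Mybl1 had 0.54 and S1pr2 0.41 in KO. Of 8 tested genes for the recruitment and survival of B cells, 1 was called. Tnfsf13b, which encodes the survival factor BAFF, rose with low protein in KO (1.13, SE 0.328, adjusted p = 0.0418). In that comparison 3.59% of all genes were called higher. Ccr7, a homing receptor, had 1.07 there (adjusted p = 0.116) and Ltb, a lymphotoxin subunit, 1.27 (adjusted p = 0.128).

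Genes that bind or carry antibodies were a mixed set. Of 10 tested, Fcgr3, an activating IgG receptor of phagocytes, was called higher with low protein in KO (1.29, SE 0.362, adjusted p = 0.0391). It was the only 1 of the 10 called there, where 3.59% of all genes were called higher. Fcgr1, the high affinity IgG receptor, had 1.25 (adjusted p = 0.0626), and Fcgrt, the IgG transporter of podocytes and tubules, had 0.40 (adjusted p = 0.0608). Pigr, the epithelial receptor that carries J chain-bearing IgA and IgM, averaged 172 CPM and had -0.46 in KO (SE 0.199, adjusted p = 0.132). For KO over WT on low protein Pigr had -0.04 (SE 0.198, adjusted p = 0.939), where Igha and Jchain rose.

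T cell and macrophage markers also varied with these comparisons. Over all genes, 3.59% were called higher with low protein in KO and 1.35% higher in KO on low protein. Of 14 T cell markers all 14 were positive for low protein in KO (median 1.224), with Icos (1.58, adjusted p = 0.0267) and Cd3e (1.27, adjusted p = 0.0449) called, and 13 of 14 were negative in WT. Cd2, an adhesion receptor of T cells, had 1.52 with low protein in KO (SE 0.472, adjusted p = 0.0507). For KO over WT on low protein all 14 were positive (median 1.18) and none was called. Their summed level ran from 32.4 to 109 CPM in WT_NP, 18.4 to 82.2 in WT_LP, 25.7 to 56.1 in KO_NP and 36.1 to 176 in KO_LP. Of 13 macrophage markers all 13 were positive with low protein in KO and in WT, and 3 were called higher in KO. These were Cd14, a receptor for bacterial lipopolysaccharide (1.33, SE 0.328, adjusted p = 0.0255), the complement gene C1qa (1.10, SE 0.335, adjusted p = 0.0477) and the integrin gene Itgam (1.47, SE 0.450, adjusted p = 0.0490). None of the T cell and macrophage markers lacked a row.

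Markers of the kidney cortex itself had mostly negative fold changes for low protein in KO and for KO over WT on low protein. For low protein in WT 7 of 12 were positive and 5 negative (median 0.02). For KO over WT on normal protein 6 were positive and 6 negative. Of all genes, 7.17% were called in either direction for low protein in KO and 2.93% for KO over WT on low protein. With low protein in KO 11 of the 12 were negative (median -0.26) and 2 were called lower: Slc34a1, the sodium phosphate cotransporter of the proximal tubule (-0.68, SE 0.188, adjusted p = 0.0371), and Slc5a2, its sodium glucose cotransporter (-0.69, SE 0.202, adjusted p = 0.0420). For KO over WT on low protein 11 of 12 were negative (median -0.28), and Calb1, a calcium-binding protein of the distal tubule, was called lower (-0.74, SE 0.204, adjusted p = 0.0484). The summed level of the 12 ran from 16746 to 29842 CPM in WT_NP, 16732 to 36089 in WT_LP, 25202 to 37816 in KO_NP and 14960 to 28744 in KO_LP, so both diets overlapped in each genotype. The part of the T cell, macrophage and kidney markers in the antibody results was not tested.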

How the data were processed

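Kidney cortex libraries of 24 mice, 6 per group, were analysed. Groups come from the labels, replicate numbers are names only, and p-values set group differences against the spread between these libraries. The authors deposited raw counts per gene and, in a second table, normalized values, a signal that equals the count divided by 1 factor per library. Per the submitters' processing notes the build was GRCm38 and DESeq2 1.22.2 was used; no source read for this work names an aligner or a counting tool. The tables hold 16921 genes with a mean count of at least 3; symbols missing there came from GENCODE M21.

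The genes and lists were chosen with earlier results of these data known. A gene of the tissue marker list is not reported here. Other genes are named by rule: the 8 non-immunoglobulin genes most correlated with Igkc, and, of each list of B cell, plasma cell, T cell, germinal centre, recruitment, receptor and other antibody genes, up to 3 with the lowest p for low protein in KO and any called gene. Pigr and the named macrophage and kidney markers were chosen after their values were seen.

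Raw counts were fitted with edgeR 4.0.16 in R 4.3.3 (filterByExpr, TMM, robust quasi-likelihood, 4 group means, 24 libraries), with Benjamini-Hochberg adjustment over 15165 genes; 1756 fell below the filter. The script was tested on simulated counts. Shares came from raw counts, with exact permutation tests in scipy 1.17.1. Correlations used log2 of CPM plus 0.5. Alternatives were DESeq2 size factors, no filter, at least 5 CPM in 6 libraries, only the compared libraries, totals without immunoglobulin genes, limma 3.58.1 (voom, and log2 of the deposited normalized values plus 1), DESeq2 1.42.0 and each library left out. Leaving out both WT_NP 1 and KO_LP 5 was chosen after seeing the data. Figures used matplotlib 3.10.9.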

Additional observations from a re-analysis of the deposited data

Results flagged for a closer look

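In 96 groups of 6 libraries (each gene, the sum of the genes, each isotype and light chain measure, and Ighg3, Ighd and Iglv1), 25 had a highest or lowest library whose gap to the nearest other was larger, as a part of the group's whole range, than Dixon's 95% value for 6 samples. Chance flags about 1 group in 20 where values are normally distributed; CPM values are skewed towards high values, so the rate here is not known. The genes also share their libraries, so these are not 25 separate events.

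KO_LP 5 stood above its group for Igkc (13463 CPM), Ighm (6066 CPM), Igha (974 CPM), Iglc2 (738 CPM), Jchain (1083 CPM) and the sum of the 10 genes (23245 CPM). For Iglc2 the gap was 0.959 of the range, and Iglc2 took 74.4% of the lambda counts of that library. KO_LP 2 stood apart in Iglc1 (581 CPM) and in its kappa share (84.2% of light chain counts). KO_LP 1 stood apart in isotype, with the lowest IgM share (21.8%) and the highest IgA share (64.4%).

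WT_NP 1 was far above the rest of WT_NP for Ighg2b (340.4 CPM), Ighg2c (256 CPM), Iglc2 (36.6 CPM), Iglc3 (27.7 CPM) and Iglv1 (10.6 CPM). In WT_LP, library 3 was far above the rest for Ighm (985 CPM) and Iglc3 (15.5 CPM). In KO_NP, library 1 was the IgG-rich one: Ighg2b 145 CPM, Ighg2c 99.9 CPM, Ighg1 39.2 CPM and an IgG share of 17.6% of heavy chain counts. Ighg3 had a single high library in 3 groups: WT_NP 6 with 548 CPM, KO_NP 3 with 18.2 CPM and WT_LP 4 with 14.6 CPM.

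For Ighg2c every WT_LP library was below the WT_NP mean and every KO_LP library above the KO_NP mean. The difference of the diet effects was 4.62 on the log2 scale, with an adjusted p of 0.158 in edgeR's quasi-likelihood test of that difference. Without both WT_NP 1 and KO_LP 5 it was 3.45, the highest of the 10 genes.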

How the results depend on the processing

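Scaling by DESeq2 size factors or without the immunoglobulin genes changed no call of the 10 genes. KO versus WT on low protein was the comparison that depended most on the setting: in place of 6 genes, 2 were called with no filter, 2 with only the compared libraries, 3 with limma on the normalized values, 7 with the 5 CPM filter, 7 with voom, 8 with DESeq2 and 1 without WT_NP 1 and KO_LP 5. In that comparison 445 of all genes were called in the main fit. The number was 409 with no filter, 359 with limma on the normalized values, 397 with the 5 CPM filter and 441 without WT_NP 1 and KO_LP 5. DESeq2 gave Iglc2 no adjusted p. In KO, low protein called 1 gene with the 5 CPM filter, 1 with only the compared libraries and 1 with DESeq2 (Iglc3 each time), and 2 with voom. Over all genes the 5 CPM filter called 1155 there and the compared libraries 1107. The difference of the diet effects called 1 with DESeq2 (Ighg2c). Over all genes, voom and DESeq2 called 6 and 14 for low protein in WT, 1744 and 1839 in KO, 154 and 246 for KO versus WT on normal protein, and 904 and 910 on low protein; DESeq2 called 117 for the difference, and the compared libraries alone gave 161 on low protein.

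With 1 library left out, 0 to 8 of the 10 genes were called for KO versus WT on low protein and 0 to 2 for low protein in KO. Over all genes these fits called 180 to 733 for KO versus WT on low protein, 52 to 151 on normal protein, 122 to 2006 for low protein in KO and 0 to 2 in WT.

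Signs turned only for values that were not called with all libraries. For low protein in WT, without WT_NP 1 and KO_LP 5, Iglc1 was 0.0365 and Iglc2 0.29 (-0.90 to 0.0361 and -0.76 to 0.29 with 1 library left out). For low protein in KO, Igha was 0.32 with voom and 0.15 with limma (-0.32 to 0.11 with 1 left out). Without WT_NP 1 and KO_LP 5 the difference for Iglc2 was -0.19, and for KO versus WT on normal protein Iglc3 was 0.0378, Ighg2b 0.10 and Jchain 0.16; Jchain was 0.49 with voom and 0.0871 with limma. With 1 left out these 3 ran from -0.81 to 0.0362, -1.23 to 0.10 and -0.70 to 0.16. The IgM share difference for low protein in WT was 1.57 points with Ighd and Ighg3 counted, 5.70 by medians, 2.69 without both libraries and -6.89 to 2.69 with 1 left out. For KO versus WT on low protein it was -1.51 without both and -2.34 to 9.86 with 1 left out. The kappa share difference for low protein in KO was 0.151 by medians and -2.05 to 0.749 with 1 left out. The J chain ratio difference there was -0.579 by medians, -0.259 without both and -0.840 to 0.762 with 1 left out, and for KO versus WT on normal protein -0.117 to 0.862. The causes were not tested. No balance passed in any setting.

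The lowest count per gene and library was 14, and counting error was not separated from the spread between mice. For the subclass shares the Wilson interval reached 5.72 points to each side (Ighg2b share of IgG in WT_LP 2, 152 of 192 counts). Extraction and sequencing batches are not in the labels. No paired analysis was possible because the replicate numbers are only names in accession order.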
